A study of Homo sapiens with 12 samples.

Results

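The spliceosome genes described here are the protein-coding genes that the deposited expression table assigns to the KEGG pathway Spliceosome, without the heat shock protein genes whose names start with HSPA. The pathway column held 148 genes, of which 134 were protein-coding and 14 were small nuclear RNAs. With the 6 HSPA genes left out, 128 of the 60715 genes of the table remained. Of these, 125 had enough counts to be tested, among 17395 genes tested in all. The other 3, HNRNPCL1, RBMXL2 and RBMXL3, had a mean of no more than 0.086 TPM in any state, a level scaled to transcript length and to the whole library.

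RNA was sequenced from 4 established human lung adenocarcinoma lines, with 1 library for each line in each of 3 states. Wherever 4 values follow each other without names, NCI-H2009 comes first, then LC-2/ad, next NCI-H2228 and last HCC4006. The attached control was ordinary adherent culture with no treatment and no time label. The detached cells had been released with trypsin and kept on ultra-low attachment plates for 1 day or 7 days, so that loss of attachment, trypsin, replating and time in culture cannot be told apart. The 4 lines served as the replicates of a state, each state has n = 4, and no line has a second culture of its own. A test therefore speaks of what the 4 lines share, and values within 1 line carry no test.

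The spliceosome removes introns from pre-mRNA in nuclear complexes of proteins and small nuclear RNAs. The U1 particle recognises the start of an intron and the U2 particle its branch point, the U4/U6.U5 tri-snRNP then joins, and the PRP19 complex and a series of RNA helicases take the assembly through the catalytic steps. Sm and LSM proteins form rings on the small nuclear RNAs, while SR proteins and hnRNPs bind the pre-mRNA and influence which exons are kept. Many SR protein genes also make transcripts with an extra exon that leads to decay, and the levels given here add up all transcripts of a gene, so such forms are not seen apart.

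Promoter sequence was not used to select the members. Promoters, 250 bases before to 50 bases after the annotated start, were found in the RefSeq table of build GRCh38.p14 for 111 of the 128 members. The promoters of SRSF3 (chr6:36594112-36594411, plus strand), TRA2B (chr3:185937965-185938264, minus strand), SNRPB (chr20:2470740-2471039, minus strand) and SNRPC (chr6:34757255-34757554, plus strand) are shown, each 5′ to 3′ on the strand of its gene. They stand for SR protein genes that were lower in the 4 lines after 1 day and for abundant genes of the Sm and U1 particles. Capitals mark matches to 6 short motifs searched on both strands. The motif CCAAT is known from NF-Y sites and the motif TGACG from CREB and ATF sites. The motif CCGGAAG is known from ETS factors. The E-box searched was CACGTG. The letters TTCCCGC stand for E2F. The letters GCCATCTT stand for YY1. Matches of different motifs may overlap, and the motifs were chosen after some promoters had been seen.
SRSF3: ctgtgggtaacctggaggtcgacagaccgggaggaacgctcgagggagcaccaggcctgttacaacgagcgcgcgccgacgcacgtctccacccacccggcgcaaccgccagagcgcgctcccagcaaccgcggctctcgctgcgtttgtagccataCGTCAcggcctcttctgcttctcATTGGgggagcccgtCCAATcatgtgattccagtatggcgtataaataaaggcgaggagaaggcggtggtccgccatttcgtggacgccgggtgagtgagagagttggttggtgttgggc
TRA2B: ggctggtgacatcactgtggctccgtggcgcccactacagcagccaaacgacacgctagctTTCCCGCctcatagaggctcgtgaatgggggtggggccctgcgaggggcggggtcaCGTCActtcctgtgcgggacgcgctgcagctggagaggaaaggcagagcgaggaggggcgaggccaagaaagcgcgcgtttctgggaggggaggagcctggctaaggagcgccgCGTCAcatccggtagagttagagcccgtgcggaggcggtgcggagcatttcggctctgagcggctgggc
SNRPB: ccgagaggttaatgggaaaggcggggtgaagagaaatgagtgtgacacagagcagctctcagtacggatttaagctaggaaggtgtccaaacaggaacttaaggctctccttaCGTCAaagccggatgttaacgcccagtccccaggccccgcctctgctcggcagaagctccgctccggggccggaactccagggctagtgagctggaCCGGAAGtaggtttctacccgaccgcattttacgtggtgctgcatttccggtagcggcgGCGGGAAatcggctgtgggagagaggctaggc
SNRPC: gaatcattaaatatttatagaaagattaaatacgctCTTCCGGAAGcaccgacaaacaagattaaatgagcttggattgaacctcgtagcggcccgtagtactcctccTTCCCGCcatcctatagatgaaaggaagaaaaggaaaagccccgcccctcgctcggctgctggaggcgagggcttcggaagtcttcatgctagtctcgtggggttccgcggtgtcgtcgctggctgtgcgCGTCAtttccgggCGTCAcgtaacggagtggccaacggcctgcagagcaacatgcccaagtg

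The ETS motif was held by 49 of the 111 member promoters, or 44.1%. Among the 11921 tested genes with a promoter in the table the share was 18.0%, and among all 27305 promoters it was 10.7%. SNRPB and SNRPC hold it, and SRSF3 and TRA2B do not. By role, it was in 6 of 7 promoters of the catalytic and release factors, 12 of 19 of the U2 particle and 4 of 6 of the Sm core, but in 2 of 10 of the SR proteins and 1 of 12 of the hnRNPs. The other motifs were closer to the tested genes, with CCAAT in 39.6% of member promoters against 36.4%, TGACG in 43.2% against 33.4%, TTCCCGC in 13.5% against 10.0%, GCCATCTT in 9.91% against 4.97% and CACGTG in 8.11% against 9.92%. These shares describe letters in a window, not binding, and no test was made of them.

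**Figure D1:**
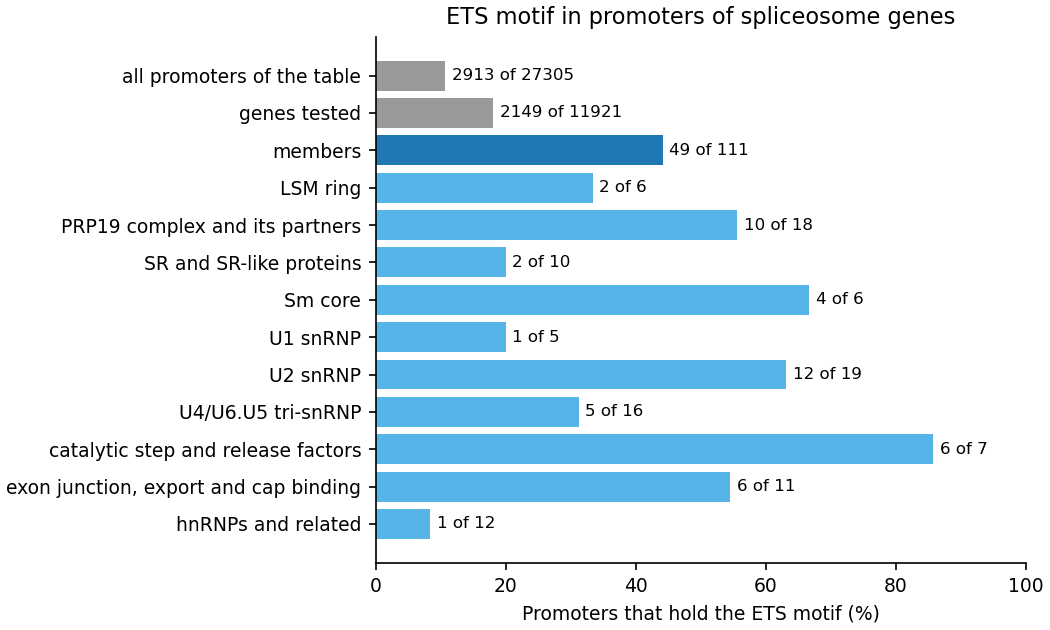
Share of promoters (%) that hold the ETS motif on either strand, for all promoters of the table, tested genes, the members and each role class, with the number of promoters beside each bar. The members stand at 44.1%, the tested genes at 18.0%, and the classes range from 1 of 12 to 6 of 7 promoters.

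The members together made up a smaller share of the TPM after detachment. Summed over the 128 genes, NCI-H2009 had 22427 TPM in attached culture, LC-2/ad had 19328, NCI-H2228 had 17475 and HCC4006 had 17642. After 1 day the levels were 14804, 16128, 13009 and 14892 TPM, and after 7 days 17744, 15876, 15547 and 14882 TPM. Every line was below its own attached library at both times, by 34.0%, 16.6%, 25.6% and 15.6% at day 1 and by 20.9%, 17.9%, 11.03% and 15.6% at day 7. The means were 19218 ± 2297 TPM attached, 14708 ± 1284 at day 1 and 16012 ± 1227 at day 7 (SD, n = 4), and the day 1 values do not overlap the attached ones. In bulk RNA, fewer cells of a kind and less RNA per cell cannot be told apart. TPM are shares of a library and not amounts of RNA, so a rise of other transcripts cannot be told apart either. Scaled to the TPM of nuclear protein-coding genes alone, the means had the same order, at 19998, 15492 and 16770.

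**Figure D2:**
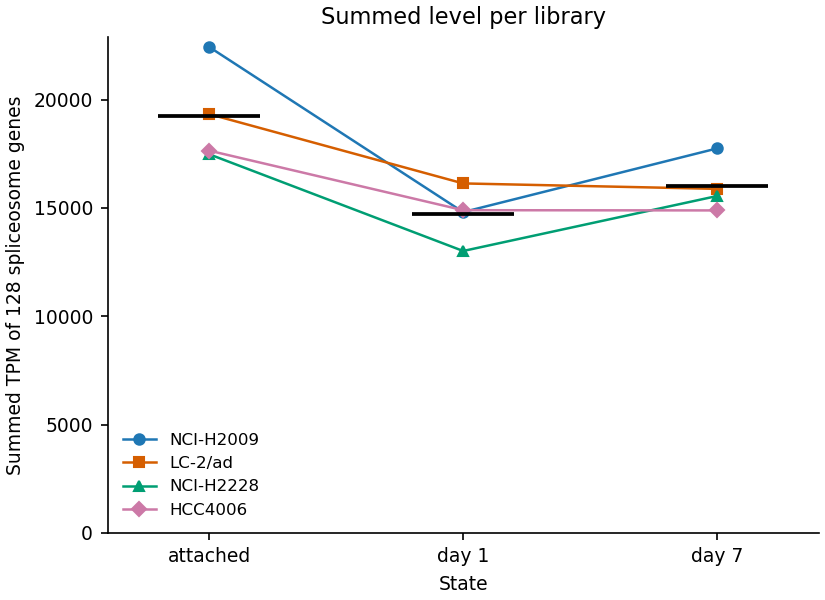
Summed TPM of the 128 spliceosome genes (vertical axis) in attached, day 1 and day 7 cells, with 1 point per library joined by line and black bars for the state means. The attached libraries sit between 17475 and 22427, and the day 1 libraries between 13009 and 16128.

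The libraries held 31134420 to 41882024 estimated counts. The carcinoma label was matched by 5 epithelial marker genes, whose summed level lay between 3105 and 16976 TPM. Of 6 leukocyte markers, PTPRC reached at most 0.834 TPM and CD3E was listed at 0 in all libraries but 1, while CD14 and CD68 carried the summed 3.60 to 120 TPM. Of 6 fibroblast markers, the sum was 4.39 to 347 TPM and lay mostly in COL1A1 of NCI-H2228. Summed leukocyte markers were 3.60 to 38.4 TPM attached, 33.2 to 87.2 at day 1 and 18.5 to 120 at day 7, and the summed fibroblast markers 6.28 to 347, 6.05 to 150 and 4.39 to 40.1 TPM. Transcripts of 8 proliferation markers were also lower over the 4 lines together, with all 8 below 0 at both times. Their median log2 fold change was -1.15 at day 1 and -1.49 at day 7. Their summed levels were 1306 to 1524 TPM attached, 337 to 1011 at day 1 and 386 to 949 at day 7. Of the 8, 5 were lower in each line at day 1 and 6 at day 7. By line at day 1, the members fell most in NCI-H2009, by 34.0%, where the marker median was -0.56. The lowest marker median, -2.16, was in NCI-H2228, where the members fell by 25.6%. Summed marker levels, attached and at day 1, were 1500 and 771 TPM in NCI-H2009 and 1524 and 1011 TPM in LC-2/ad. They were 1457 and 337 TPM in NCI-H2228 and 1306 and 687 TPM in HCC4006. Of the 8 markers, CCNB1, a cyclin of mitotic entry, fell by 1.95 ± 0.35 at day 1 (edgeR adjusted p 0.0496). The part of these lists in the results was not tested. Mitochondrial transcripts took 0.526 to 1.56% of the TPM in attached cells and 0.968 to 3.39% in detached cells.

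The comparison of day 1 with attached cells asks what differed soon after detachment. Spliceosome genes were mostly lower, and the genes of the U1 particle and the SR proteins had the lowest class medians. The median log2 fold change of the 125 tested members was -0.26, against 0.01 for all genes tested, and 95 members lay below 0. In 59 members the difference of log2 counts scaled to the library was negative in each of the 4 lines, against 16.5% of all genes tested and 20.7% of protein-coding genes with a mean of at least 10 TPM. In 4 members, SYF2, ISY1, ZMAT2 and DHX38, it was positive in each line, against 17.1% of all genes. By the quasi-likelihood test of edgeR with Benjamini-Hochberg adjustment over all genes, 1 member was lower (0.339% of all genes) and 0 were higher (0.149%), and at an unadjusted p under 0.05 the counts were 37 lower (9.01%) and 1 higher (10.6%). DESeq2 called 17 members lower (4.37%) and 0 higher (5.46%). Without NCI-H2009, the other 3 lines had 70 members lower in each and a median of -0.23. A shared sign is met more easily in 3 lines than in 4, and the shares of all genes above are for 4 lines.

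Of the SR protein genes, 9 of 12 were negative in the 4 lines, with a median of -0.49. SRSF2 encodes an SR protein that binds exonic enhancers and also takes part in transcription elongation (chromosome 17, 76734115 to 76737333, minus strand). In attached culture NCI-H2009 had 368 TPM of it, LC-2/ad had 357, NCI-H2228 had 336 and HCC4006 had 323. After 1 day it was 121, 187, 135 and 188 TPM, below all attached libraries, and after 7 days 255, 215, 149 and 246 TPM. The groups did not overlap at either time. SRSF2 fell by 1.06 ± 0.17 (SE) on the log2 scale at day 1, with an adjusted p of 0.0496 in edgeR, and by 1.34, 1.01, 1.15 and 0.73 in the 4 lines. Leaving out any 1 line or library took that call away, with edgeR adjusted p between 0.0574 and 0.251 and a log2 fold change between -1.19 and -0.98. The gene overlaps MFSD11 on the opposite strand over 1469 bases, at a mean of 44.1 TPM, and the use of strand in counting is not given in the sources used here.

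SRSF3, which encodes the smallest of the classical SR proteins and whose promoter is printed above, was close behind. Its levels were 395, 352, 406 and 314 TPM attached, 131, 239, 165 and 204 TPM at day 1 and 264, 293, 278 and 241 TPM at day 7. Each detached library was below every attached one, and NCI-H2009 and NCI-H2228 were lowest at day 1. The day 1 difference was -0.92 ± 0.17, with an edgeR adjusted p of 0.0555, which misses the threshold of 0.05.

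SRSF1, the founding member of the SR family, and TRA2B, an SR-like activator of exons with purine-rich enhancers, had the same order of states. SRSF1 stood at 121, 83.3, 96.2 and 83.5 TPM attached and at 33.8, 47.5, 46.0 and 56.2 TPM at day 1, a difference of -0.95 ± 0.20 (edgeR adjusted p 0.0710). TRA2B stood at 214, 218, 247 and 189 TPM attached and at 95.2, 141, 138 and 127 TPM at day 1, a difference of -0.67 ± 0.16 (edgeR adjusted p 0.0798). In both genes the attached and day 1 values did not overlap, and NCI-H2009 was lowest at day 1. Of the other SR genes, TRA2A was at -0.67, SRSF10 at -0.52, SRSF7 at -0.47, SRSF6 at -0.30 and SRSF9 at -0.29, each negative in the 4 lines. SRSF5 at -0.26, SRSF8 at 0.08 and SRSF4 at 0.25 were not on 1 side.

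The U1 genes had the lowest class median, -0.65, with 6 of 7 negative in the 4 lines. SNRPA, a U1 protein that binds a stem-loop of U1 RNA, was at 118, 103, 148 and 86.5 TPM attached and at 54.8, 57.1, 36.6 and 47.2 TPM at day 1. The groups did not overlap, and NCI-H2228 went from the highest attached to the lowest day 1 value. Its difference was -1.02 ± 0.21 (edgeR adjusted p 0.0688). SNRPC and SNRNP70, the other U1-specific proteins, were both at -0.29, with mean levels of 479 ± 219 and 182 ± 44.4 TPM in attached cells (SD, n = 4).

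The U2 genes had a median of -0.28, with 12 of 24 negative in the 4 lines. DHX15, a helicase that takes spliceosomes apart, was at 134, 123, 105 and 155 TPM attached and 50.9, 73.4, 63.2 and 117 TPM at day 1, with overlapping groups because HCC4006 stayed above 105. Its difference was -0.66 ± 0.16 (edgeR adjusted p 0.0843). U2AF1, which reads the AG at the end of the intron, and its near-identical copy U2AF1L5 were at -0.47 and -0.38, and counting may have split reads between them. SF3B6 and SF3B5, small subunits and the most abundant of the class with means of 493 ± 394 and 421 ± 117 TPM attached (SD, n = 4), were at 0.03 and 0.12.

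The tri-snRNP genes had a median of -0.25, with 10 of 18 negative in the 4 lines. EFTUD2, the GTPase of the U5 particle, stood at 160, 233, 114 and 94.7 TPM attached and 77.0, 182, 95.4 and 61.4 TPM at day 1. The line order was much the same in both states, with LC-2/ad highest and HCC4006 lowest. Its difference was -0.43 ± 0.15 (edgeR adjusted p 0.168), and PRPF8, the largest protein of the catalytic core, was at -0.20 ± 0.16.

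Among the ring proteins, the Sm core had a median of -0.18 and the LSM ring of -0.13. SNRPD1 was at 203, 172, 102 and 89.5 TPM attached and 79.9, 123, 54.9 and 74.0 TPM at day 1, a difference of -0.70 ± 0.17 (edgeR adjusted p 0.0875). Each line was below its own control, but the groups overlap because the attached lines differ. SNRPF at -0.77, LSM5 at -0.65 and LSM4 at -0.58 were also negative in the 4 lines. SNRPD2, the most abundant member with a mean of 1113 ± 465 TPM attached (SD, n = 4), was at -0.00 ± 0.24.

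The exon junction, export and cap-binding genes had a median of -0.29, with 6 of 12 negative in the 4 lines, and the hnRNPs of -0.36, with 5 of 10. ALYREF, an adaptor for mRNA export, was at -0.68 ± 0.20 and NCBP1, the large cap-binding subunit, at -0.80 ± 0.21 (edgeR adjusted p 0.116 and 0.0951). HNRNPC and HNRNPK, the most abundant hnRNPs, were at -0.24 and -0.30. Their levels in attached cells were 907 ± 105 and 798 ± 86.4 TPM (SD, n = 4).

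The PRP19 complex and the catalytic and release factors, among which DHX15 was not counted, lay around 0. Their medians were 0.02 and -0.05, with 4 of 20 and 1 of 7 members negative in the 4 lines and 2 and 1 positive. BUD31 and PQBP1, the most abundant of the first class, were at 0.25 and 0.05. SYF2, a PRP19-associated protein, was the only member with an unadjusted p under 0.05 above 0, at 0.43 ± 0.19 (edgeR adjusted p 0.241). RP9, which was put in no class, was at -1.16 ± 0.27 (edgeR adjusted p 0.0773), with 12.1, 23.9, 47.1 and 32.4 TPM attached and 1.90, 11.8, 21.5 and 20.3 TPM at day 1.

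**Figure D3:**
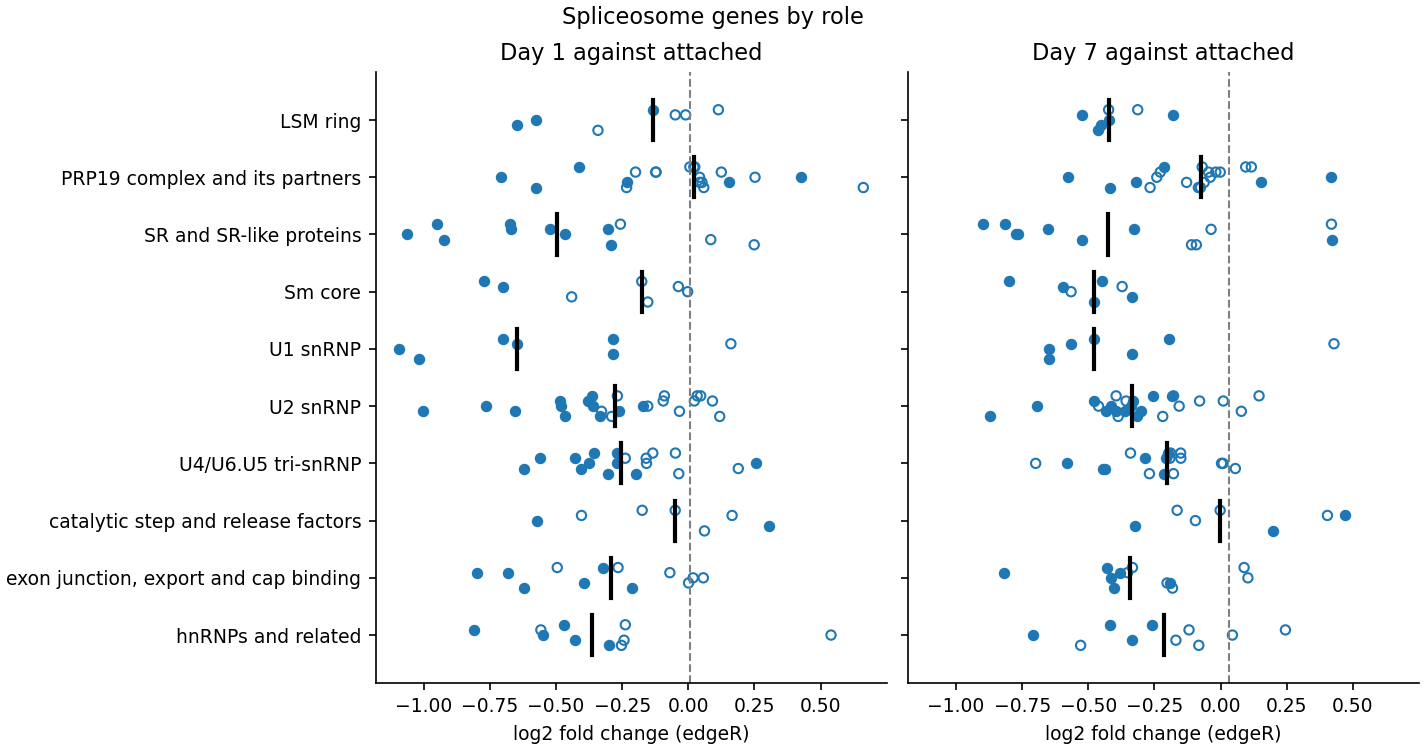
log2 fold change in edgeR (horizontal axis) of each tested member by role class, day 1 (left) and day 7 (right) against attached, without RP9, which is in no class. Filled points have the same sign in the 4 lines, black bars are class medians, and the dashed line is the median of all genes tested. The SR and U1 medians are -0.49 and -0.65 at day 1, and the Sm median is -0.48 at day 7.

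**Figure D4:**
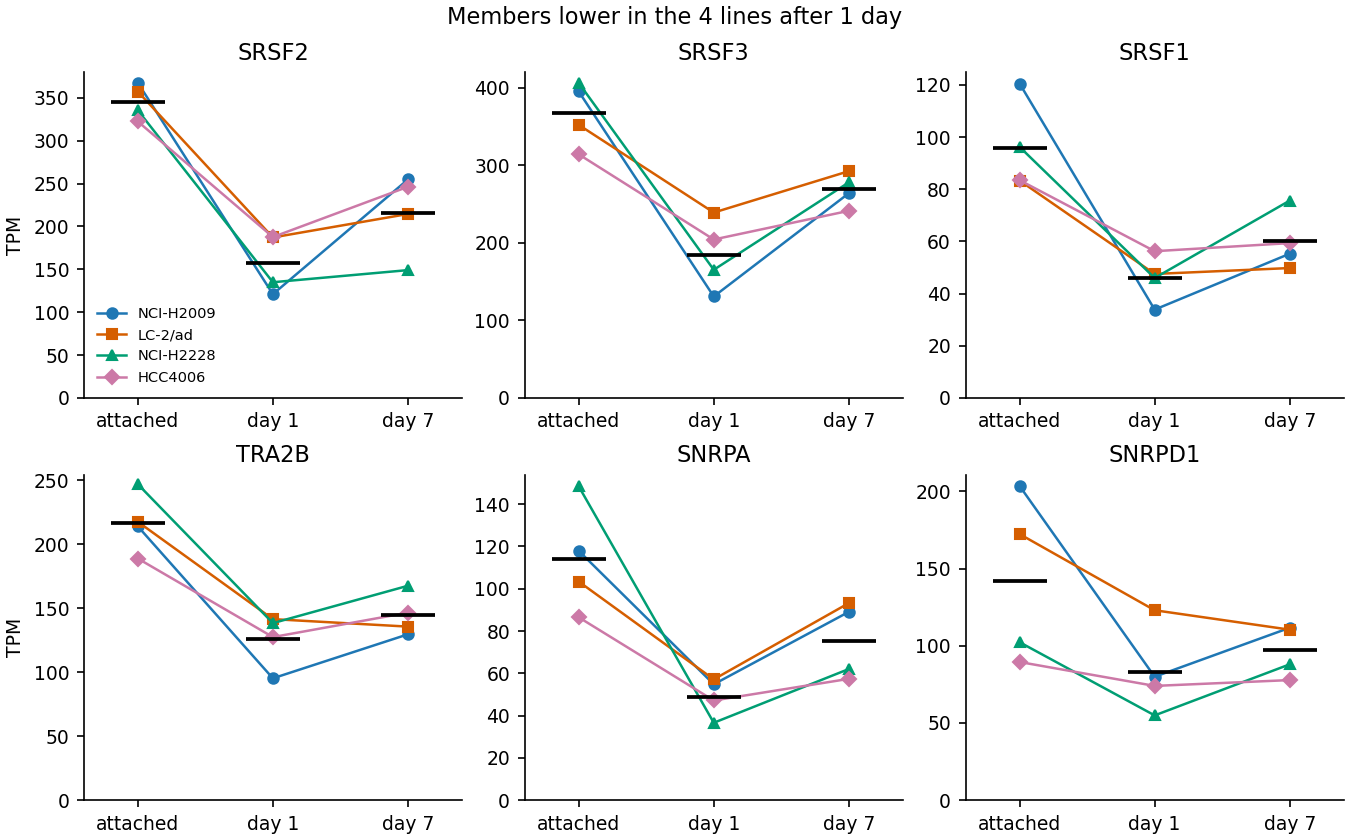
TPM (vertical axis) of 6 members in the 3 states, with 1 point per library joined by line and black bars for the state means. SRSF2 goes from 323 to 368 TPM attached to 121 to 188 TPM at day 1, and in each panel every line is below its attached value at both times.

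After 7 days the members were again mostly lower than in attached cells. The attached controls are those of the day 1 comparison, so both comparisons share them. The median of the 125 members was -0.27, against 0.03 for all genes tested, and 105 lay below 0. In 59 members the difference was negative in each line, against 13.8% of all genes and 18.3% of protein-coding genes with a mean of at least 10 TPM, and in 5, SYF2, CCDC12, SLU7, SRSF8 and DHX8, it was positive, against 14.6%. edgeR called 0 members lower (0.0977% of all genes) and 0 higher (0.00575%), and at an unadjusted p under 0.05 it had 31 lower (7.19%) and 2 higher (8.47%). DESeq2 called 10 lower (3.23%) and 0 higher (3.45%). Without NCI-H2009, 66 members were lower in each of the other 3 lines and the median was -0.21. That count again needs a shared sign in only 3 lines, unlike the shares of all genes above.

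The Sm core had a median of -0.48 at day 7, with all 7 members below 0 and 5 negative in the 4 lines. SNRPF was at 147, 131, 93.9 and 61.9 TPM attached and 68.8, 70.4, 73.9 and 41.3 TPM at day 7, a difference of -0.80 ± 0.22 (edgeR adjusted p 0.155). The difference was -1.52 in NCI-H2009 and -0.30 in NCI-H2228. SNRPB, which makes 2 Sm proteins by alternative splicing, was at -0.45 ± 0.18, SNRPE at -0.48 ± 0.21 and SNRPD1 at -0.60 ± 0.17. SNRPD2 had 1493, 1502, 560 and 897 TPM attached and 844, 951, 354 and 934 TPM at day 7, so that HCC4006 did not share the lower value.

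All 7 LSM genes were below 0 at day 7, with a median of -0.42 and 5 negative in the 4 lines. LSM4 was at 568, 362, 501 and 611 TPM attached and 425, 286, 411 and 442 TPM at day 7. The groups overlap, while each line was below its own control. LSM3 was at -0.52 ± 0.21 and LSM5 at -0.45 ± 0.17.

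Both rings were lowest against attached in NCI-H2009 at day 7. The Sm medians were -1.14, -0.59, -0.46 and -0.11 in the 4 lines and the LSM medians -0.97, -0.34, -0.26 and -0.15. Of the 14 ring genes, 3 are under 1000 bases long and 8 under 2000. In NCI-H2009 the day 7 against attached median was -0.45 for all protein-coding genes under 1000 bases and -1.18 for the 7 members of that length, and the part of length in the ring values was not tested. The lines also differed in how day 7 stood to day 1, since in NCI-H2228 the summed LSM level was 617 TPM at day 1 and 904 at day 7 and the summed Sm level 1570 and 1734 TPM, while NCI-H2009 had 907 and 883 TPM of LSM and 3274 and 2232 TPM of Sm transcripts.

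Of the SR genes, 7 of 12 were negative in the 4 lines at day 7 and the median was -0.43. TRA2A was at 40.5, 28.0, 44.8 and 40.1 TPM attached and at 22.8, 21.5, 21.5 and 25.2 TPM at day 7, with no overlap. Its difference of -0.90 ± 0.20 (edgeR adjusted p 0.115) was the lowest of the members. SRSF1 was at -0.81 ± 0.20, SRSF2 at -0.78 ± 0.17, SRSF7 at -0.76 ± 0.23, TRA2B at -0.65 ± 0.16 and SRSF3 at -0.52 ± 0.17, with edgeR adjusted p of 0.134, 0.112, 0.173, 0.133 and 0.200. SRSF8, an intronless relative of SRSF2, had 36.9, 54.2, 44.9 and 56.9 TPM attached and 66.4, 71.7, 73.6 and 58.4 TPM at day 7. It was thus above its control in each line, with no overlap, by 0.42 ± 0.15 (edgeR adjusted p 0.223).

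Of the other classes at day 7, the U1 genes had a median of -0.48 with 6 of 7 negative in the 4 lines, the U2 genes of -0.33 with 13 of 24, the tri-snRNP genes of -0.20 with 7 of 18, the exon junction, export and cap-binding genes of -0.34 with 6 of 12, and the hnRNPs of -0.21 with 4 of 10. ALYREF was at 405, 286, 161 and 207 TPM attached and 209, 167, 108 and 119 TPM at day 7, a difference of -0.82 ± 0.20 (edgeR adjusted p 0.134), and it overlaps the abundant ANAPC11 on the opposite strand over 797 bases. PRPF4, a U4/U6 protein, was at 72.0, 54.2, 58.1 and 59.2 TPM attached and 51.4, 33.9, 41.7 and 43.5 TPM at day 7, with no overlap, a difference of -0.58 ± 0.17 (edgeR adjusted p 0.166). The PRP19 class had a median of -0.07, and the catalytic and release factors of -0.00. The summed level of this last class, which includes DDX5, was 778 ± 99.7 TPM attached, 656 ± 201 at day 1 and 1125 ± 268 at day 7 (SD, n = 4). DDX5 alone made up most of these sums, with means of 575, 461 and 895 TPM.

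Between day 7 and day 1 the members as a whole did not lie to 1 side. The median was 0.02, the same as for all genes tested, with 9 members lower in each line (8.69% of all genes) and 16 higher (9.61%). edgeR called 0 lower (0.0% of all genes) and 0 higher (0.0%), and at an unadjusted p under 0.05 it had 3 lower (4.93%) and 7 higher (4.85%). DESeq2 called 1 lower, DHX38 (0.575%), and 1 higher, HNRNPA1L2 (0.535%). The count of 9 became 35 in the other 3 lines without NCI-H2228 and 18 without HCC4006, where a shared sign is met more easily.

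DHX38, the PRP16 helicase that acts before the second catalytic step, was above attached in each line at day 1 and below it at day 7 on the scale of log2 counts, with a day 7 difference of only -0.01 in LC-2/ad. Its levels were 34.4, 15.7, 21.7 and 23.0 TPM attached, 36.8, 21.5, 22.8 and 25.8 TPM at day 1 and 35.1, 15.3, 15.9 and 13.8 TPM at day 7. NCI-H2009 was highest in every state and on the TPM scale was not below attached at day 7. The day 7 against day 1 difference was -0.63 ± 0.15, with an adjusted p of 0.394 in edgeR and 0.00557 in DESeq2. The gene overlaps TXNL4B on the opposite strand over 819 bases.

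The SR genes were 6 of the 16 members on the higher side. Of the 12 SR genes, SRSF2, SRSF3, SRSF5, SRSF6, SRSF8 and SRSF9 were higher at day 7 than at day 1 in each line on the scale of log2 counts, and 1 was lower. On the TPM scale SRSF6 was instead lower in LC-2/ad, at 28.6 and 23.9 TPM, and in HCC4006, at 16.0 and 15.6 TPM. SRSF5 was at 60.6, 86.0, 134 and 92.4 TPM at day 1 and 183, 184, 211 and 113 TPM at day 7, a difference of 0.68 ± 0.19 (edgeR adjusted p 0.463), with 103, 107, 113 and 126 TPM in attached cells. DDX5, a helicase with roles in splicing and transcription, was at 282, 463, 707 and 392 TPM at day 1 and 1144, 895, 1027 and 514 TPM at day 7, a difference of 0.81 ± 0.24 (edgeR adjusted p 0.475). HCC4006 had the lowest day 7 value of both genes. HNRNPA1L2, a copy of HNRNPA1, was at 1.06 ± 0.31 (edgeR adjusted p 0.466) with a day 7 mean of 9.24 ± 2.97 TPM (SD, n = 4), and reads of the abundant HNRNPA1 may be counted there.

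**Figure D5:**
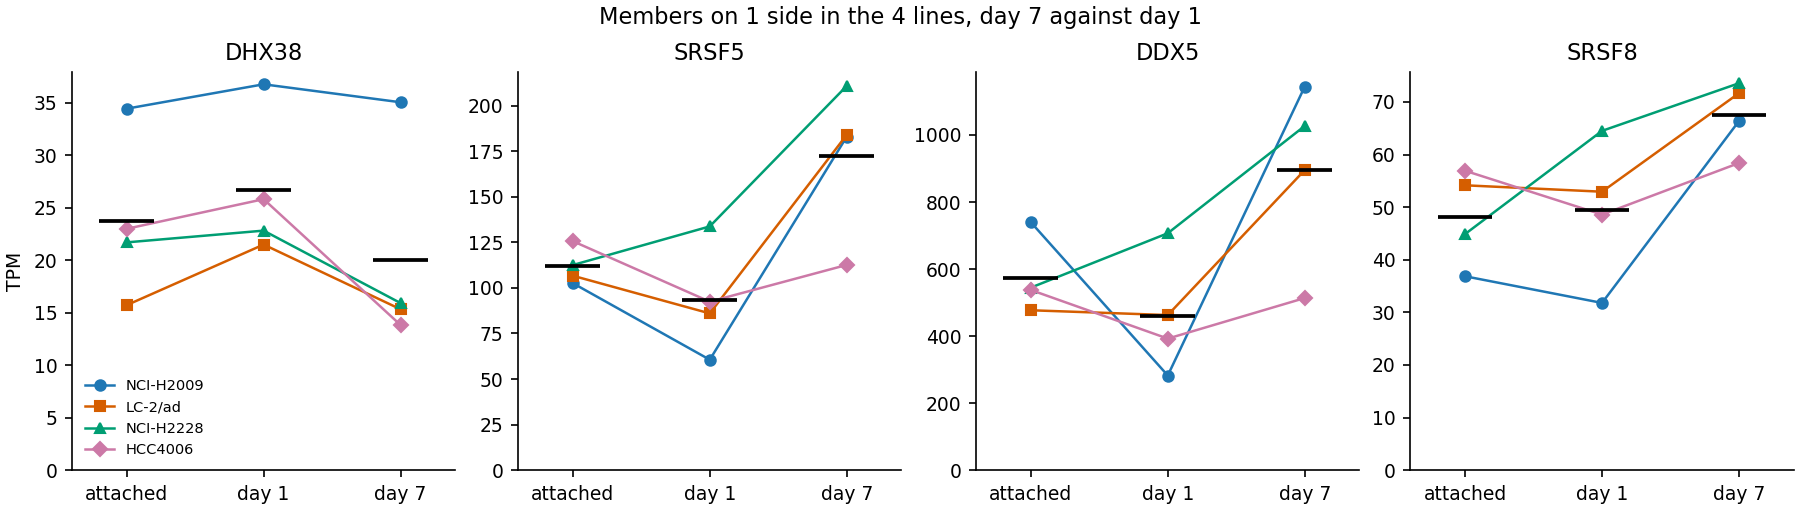
TPM (vertical axis) of DHX38, SRSF5, DDX5 and SRSF8 in the 3 states, with 1 point per library joined by line and black bars for the state means. DHX38 was lower at day 7 than at day 1 in each line, the other 3 genes were higher, and no difference passed the edgeR threshold.

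In the NCI-H2009 library of day 1, 6 of the 125 tested members, or 4.8%, were more than 4-fold below the attached library, a smaller share than the 7.61% of all genes tested. In the other lines no member was at either time. THOC2, a subunit of the THO export complex, had 24.0 TPM attached, 0.807 at day 1 and 34.0 at day 7 in NCI-H2009, but 52.3, 59.7 and 61.4 TPM in LC-2/ad. U2SURP, an SR-related U2 protein, had 135, 11.5 and 116 TPM in NCI-H2009, and RBM25, an alternative splicing factor, had 55.9, 5.20 and 39.0 TPM. In the other 3 lines U2SURP and RBM25 differed by -0.32 to -0.75 on the log2 scale at day 1. DDX46 and RP9 were also among the 6. THOC2, U2SURP, RBM25 and DDX46 have gene lengths of 5600 to 7424 bases in the table, and RP9 has 1135. Those 4 longer genes were among the 5 members, or 4% of those tested, that were more than 4-fold higher at day 7 than at day 1 in this line, again a smaller share than the 9.27% of all genes. These genes were chosen after their values were seen.

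Gene length moved with the differences, most in NCI-H2009. The median day 1 difference of protein-coding genes there was 0.33 for genes under 1000 bases and -0.23 for genes over 4000 bases. The same medians were 0.07 and -0.04 in LC-2/ad, 0.06 and 0.03 in NCI-H2228 and 0.23 and -0.05 in HCC4006. The members had 0.14 and -0.44 in NCI-H2009. Between day 7 and day 1 the protein-coding medians of NCI-H2009 were -0.86 and 0.35. With a length trend removed from each library, 59 members were lower in the 4 lines at day 1 and 60 at day 7, with medians of -0.26 and -0.29.

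Line explained more of the variation of most members than state. On the log2(TPM + 1) scale, cell line took a median of 55.6% of a tested member's variance, state 20.1% and the rest 18.0%. State took more than line in 36 of 125 members. These are shares of the sums of squares over 4 lines and 3 states. They were not adjusted for the number of lines and states, and noise alone gives each some share, with more to line. State took 79.2% of the variance of SRSF2, 79.1% of TRA2B and 78.9% of SRSF3, whereas line took 98.2% of that of PQBP1 and 96.7% of that of XAB2. The 3 libraries of a line lay apart from all 9 others, above or below, in 6 and 5 members for NCI-H2009, 9 and 4 for LC-2/ad, 1 and 8 for NCI-H2228, and 9 and 5 for HCC4006. The same counts were not taken over all genes, so they do not set the members apart from other genes. These line levels are described without a test.

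In NCI-H2009, SF3B6 had a mean of 761 TPM over the 3 states against 302 TPM in the other lines, and CTNNBL1, a PRP19-associated protein, 110 against 42.4 TPM. CRNKL1, a scaffold of the PRP19-associated complex, had 4.32 against 22.8 TPM, with at most 6.28 TPM in NCI-H2009 and at least 13.3 TPM elsewhere. In LC-2/ad, EFTUD2 had 205 against 104 TPM, while XAB2, another PRP19-associated scaffold, had 4.39 against 21.2 TPM and SF3B3 104 against 208 TPM. THOC2 was at 57.8 against 33.9 TPM there, with overlapping ranges, since HCC4006 reached 63.7 TPM.

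In NCI-H2228, SF3B6 was low at 146 against 507 TPM, with 137 to 155 TPM over its 3 libraries. LSM8, which gives the nuclear LSM ring its identity, was at 6.64 against 22.0 TPM. Its ranges nearly touched, with at most 8.07 TPM in NCI-H2228 and at least 8.22 TPM elsewhere. SNW1 was high at 143 against 80.0 TPM, but it overlaps SLIRP, at a mean of 870 TPM, on the opposite strand. RP9 had 35.6 against 17.8 TPM with overlapping ranges. In HCC4006, PRPF18, a second-step factor, was high at 46.8 against 14.0 TPM and CRNKL1 at 32.5 against 13.4 TPM. LSM2 was low there at 31.3 against 87.4 TPM, and PRPF40B was at 3.38 against 9.16 TPM with overlapping ranges.

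Genes that serve the spliceosome without being members gave a mixed picture. Beside the counts of these lists, 16.5% of all genes tested were negative and 17.1% positive in the 4 lines at day 1. At day 7 these shares were 13.8% and 14.6%. Of 15 genes of snRNP assembly, such as the SMN complex, 9 were negative and 1 was positive in the 4 lines at day 1, with a median of -0.24, and 6 and 2 at day 7, with a median of -0.32. GEMIN8 was positive in the 4 lines at both times, at 0.90 ± 0.20 and 0.76 ± 0.20 (edgeR adjusted p 0.0761 and 0.147), while GEMIN2 was at -0.43 ± 0.22 and -0.65 ± 0.22. Of 20 regulated splicing factors outside the pathway, 8 were negative in the 4 lines at day 1 and 9 at day 7, with medians of -0.39 and -0.18. PTBP1, a repressor of exons, was at -0.59 ± 0.16 and -0.55 ± 0.16 (edgeR adjusted p 0.0997 and 0.162), and QKI at -0.63 ± 0.24 and -0.80 ± 0.24.

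The minor spliceosome, which removes a rare class of introns, was represented by 9 genes with medians of 0.09 and 0.08. ZMAT5 was at 0.74 ± 0.17 at day 1 and 0.40 ± 0.17 at day 7 (edgeR adjusted p 0.0767 and 0.298), and SNRNP25 at -0.05 ± 0.21 and -0.57 ± 0.21. Of 8 kinases that phosphorylate SR proteins, 2 were negative in the 4 lines at each time, and the medians were 0.06 and -0.15. CLK1 was at 0.09 ± 0.23 and -0.36 ± 0.23, and SRPK1 at -0.48 ± 0.17 and -0.21 ± 0.17. Of the 52 genes of these 4 lists, edgeR called 0 at either time. At an unadjusted p under 0.05 it had 13 lower and 2 higher at day 1 (9.01% and 10.6% of all genes). At day 7 it had 12 lower and 2 higher (7.19% and 8.47%). DESeq2 called 7 lower at day 1 (4.37% of all genes), GEMIN5, GEMIN7, PRMT5, WDR77, PTBP1, TIA1 and SRRM1, and 2 higher (5.46%), GEMIN8 and ZMAT5. At day 7 it called PTBP1 and QKI lower (3.23%) and GEMIN8 higher (3.45%).

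Levels of 41 of the 128 members may include reads of another gene, since they overlap a gene with a mean of at least 1 TPM. Besides U2AF1 and HNRNPA1, the pairs RBMX with RBMXL1 and ISY1 with ISY1-RAB43 are too alike for these values to be certain. U2AF2, the partner of U2AF1 that reads the polypyrimidine tract, was listed at a mean of only 6.62 TPM over the 12 libraries, and PRPF19, the ubiquitin ligase that names its complex, at 14.5 TPM. The members whose promoters hold the ETS motif had medians of -0.15 at day 1 and -0.21 at day 7 (n = 49), and those whose promoters lack it -0.30 and -0.26 (n = 59).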

How the data were processed

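RNA was sequenced from 4 lung adenocarcinoma lines in 3 states, with 1 library each. Per the labels' protocols, total RNA was taken with the RNeasy Mini Kit and libraries were made with SMART-Seq v4 PLUS, a kit that amplifies cDNA by PCR. The submitters' processing notes name build GRCh38. Which aligner, quantifier, annotation and strand setting were used is not given in the sources used here. The TPM values that the authors deposited add up to 1000000 per library. The authors also deposited estimated counts, unnormalized, with totals of 31134420 to 41882024 per library, and 31.5% of those above 0 are not whole. A single count stood for 0.0239 to 0.0321 CPM, counts scaled to the library total. There are no molecular identifiers, so totals speak of counting error only.

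Rounded estimated counts went into edgeR 4.0.16 under R 4.3.3 (filterByExpr by state, TMM, robust quasi-likelihood fit of state and line over 12 libraries, 6 residual degrees of freedom, adjusted p by Benjamini-Hochberg over 17395 genes, threshold 0.05). The SE is the log2 fold change divided by the root of its F statistic. Line was the block, since the libraries of a line share its cells. Differences within a line use log2 CPM (prior count 2). Alternatives used DESeq2 1.42.0, limma 3.58.1 on log2(TPM + 1) and log2(TPM + 0.1), other filters, no block, only the 2 states compared, each line and library left out, and, chosen after seeing the data, a trend on gene length removed. The test was tested on simulated data.

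Members, role classes and gene lists were chosen with earlier results of these data known. Named members are those past the threshold, the 8 with the smallest p and 1 sign in the 4 lines per comparison, the 2 most abundant per class, 2 per side and line by the difference from the other lines on log2(TPM + 1) with at least 5 TPM on the higher side, and those under 1 TPM. Of the other lists, genes past the threshold and the 2 with the smallest p at day 7 are named. Other members are given to complete a class and were chosen after their values were seen. Values of 1 member are not reported here.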

Additional observations from a re-analysis of the deposited data

Results flagged for a closer look

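For named members, each state's 4 libraries were checked for 1 value far from the others by Dixon's criterion on the gap of the outermost value over the whole range, which gave 3 of 138 groups. Chance gives about 1 in 20. SNRPF at day 7 was 41.3 TPM in HCC4006, against 68.8 to 73.9 TPM in the other lines. DHX38 at day 7 was 35.1 TPM in NCI-H2009, against 13.8 to 15.9 TPM in the others. SRSF9 in attached cells was 474 TPM in NCI-H2009, against 313 to 338 TPM in the others.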

How the results depend on the processing

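Each member count and median against attached kept its direction under every alternative run. Of the members, 1 passed the threshold at day 1 as reported. The number was 17 with DESeq2, 7 and 6 with limma on log2(TPM + 1) and log2(TPM + 0.1), 4 with no filter, 2 with a TPM filter and 2 with the length trend removed. It was 0 with DESeq2 size factors, 0 without the block, 0 with only the 2 states and 0 to 0 with a line or library left out. The share of all genes called is given above for the reported fit and DESeq2 only. The numbers of the other settings therefore have no background beside them. For SRSF2 the edgeR adjusted p was 0.0519 with DESeq2 size factors, 0.134 with only the 2 states and 0.950 without the block. At day 7 DESeq2 called 10 members and every edgeR and limma setting 0, and for day 7 against day 1 the numbers were 2 and 0. The cause of these differences was not tested.

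Members lower in the 4 lines were 59 to 74 at day 1 and 53 to 62 at day 7 over the settings, and 59 to 72 and 58 to 81 with a line or library left out. For day 7 against day 1 that count was 9 to 35, where fewer lines have to share a sign. Medians from limma were -0.39 (+ 0.1) and -0.38 (+ 1) at day 1, and 0.23 and 0.22 for day 7 against day 1, while the median of all genes moved to -0.13 and 0.19 with + 0.1 and to -0.08 and 0.13 with + 1. Without the 2 most abundant members, SNRPD2 and HNRNPC, the summed mean was 12973 TPM at day 1 and 14488 TPM at day 7, against 17197 TPM attached. No paired analysis by replicate number was possible because the labels number every library 1. The biological coefficient of variation over all genes tested was 38.7%.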

Other observations

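The 14 small nuclear RNA genes of the pathway, left out by the selection, summed to 0.242 to 13.1 TPM per library. The library kit primes on poly(A) tails, which these RNAs lack.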
